A study of Mus with 8 samples.

Results

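Otop1, Kcnk3, Trpv2, Trpv4 and Trpm8 encode ion channels that have been linked to thermogenesis in brown fat. These 5 genes were chosen by name from the 30668 genes with a probe set of their own, with the KO and WT values of these arrays already known, and each probe set was selected on its mean log2 value over all 8 arrays. RNA came from interscapular brown fat, a depot that makes heat. The labels give 4 HILPDA KO mice and 4 wild type (WT) mice, all female and of C57BL/6 background. Hilpda encodes a small lipid droplet protein that inhibits adipose triglyceride lipase. Neither the age of the mice nor the way the gene was deleted (whole body or in 1 cell type) is stated in the labels. The labels describe no technical replicates, and each array is taken as a separate mouse.

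Brown adipocytes burn fatty acids in their mitochondria when noradrenaline raises cyclic AMP, and the membrane potential and calcium of the cell set how strongly they answer. Otop1 encodes otopetrin 1, a proton channel known from the inner ear and from sour taste cells that is also made in mouse brown fat. Kcnk3 encodes TASK-1, a background potassium channel of the K2P family that is closed by acid and that is known in mouse brown adipocytes to restrain the thermogenic response. Trpv2, Trpv4 and Trpm8 encode calcium-permeable TRP channels. In mice, loss of Trpv2 weakens thermogenesis, Trpv4 is known to hold down thermogenic genes in adipocytes, and Trpm8 is the menthol and cold receptor of sensory neurons.

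The arrays form 2 sets, of which the labels say nothing. Replicates 1 and 2 of both groups (set 1) had medians of 3.92 to 3.99 over named genes, and replicates 3 and 4 of both groups (set 2) had medians of 4.92 to 4.97, all on the log2 scale of the deposited RMA values. Each set holds 2 KO and 2 WT arrays, so KO was set against WT within a set or with the set as a block, and no level is compared across sets. The tissue label was borne out by 12 of 12 brown adipocyte markers above background on all 8 arrays, where background is the 95th percentile of olfactory receptor genes. Ucp1, the uncoupling protein that defines brown fat, was at the ceiling of the arrays. The label of female mice was not, since Xist read 3.49 to 4.10, below that limit on all 8 arrays, and Uty and Eif2s3y, which are Y-linked, read 9.31 to 10.93 and 8.53 to 11.01. Hilpda was 0.09 higher (SE 0.10) in KO than in WT arrays of set 1 and 0.40 lower (SE 0.10) in set 2. The level of the targeted gene thus had the direction of the labels in set 2 alone. There it was not called (limma adjusted p = 0.144), and both KO values lay below both WT values, as in 19.1% of all genes. Whether its probe set lies inside the deletion is not stated, and every direction given here is that of the label.

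Otop1 and Kcnk3 stood far above background on all 8 arrays, whereas the 3 TRP channels did not. Otop1 (gene 21906, chromosome 5) lay 8.46 to 11.29 above the median of olfactory receptor genes on the log2 scale. Kcnk3 (gene 16527, chromosome 5) lay 7.40 to 9.90 above it. Trpv2 (gene 22368, chromosome 11) passed the limit on 6 arrays, namely 2 of 4 in set 1 and 4 of 4 in set 2. Trpv4 (gene 63873, chromosome 5) passed it on 5 arrays, 1 of 4 in set 1 and 4 of 4 in set 2. Trpm8 (gene 171382, chromosome 1) passed it on 0 of 8 and stayed within 0.15 of the olfactory receptor median, so its values hold no measurable signal. A higher limit was the 95th percentile of 5222 probe sets marked as negative controls (8.09 to 9.97). Otop1 and Kcnk3 passed it on 8 arrays, and Trpv2, Trpv4, Trpm8 and Hilpda on 0. Of all genes, 44.8% passed the olfactory receptor limit on every array.

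**Figure D1:**
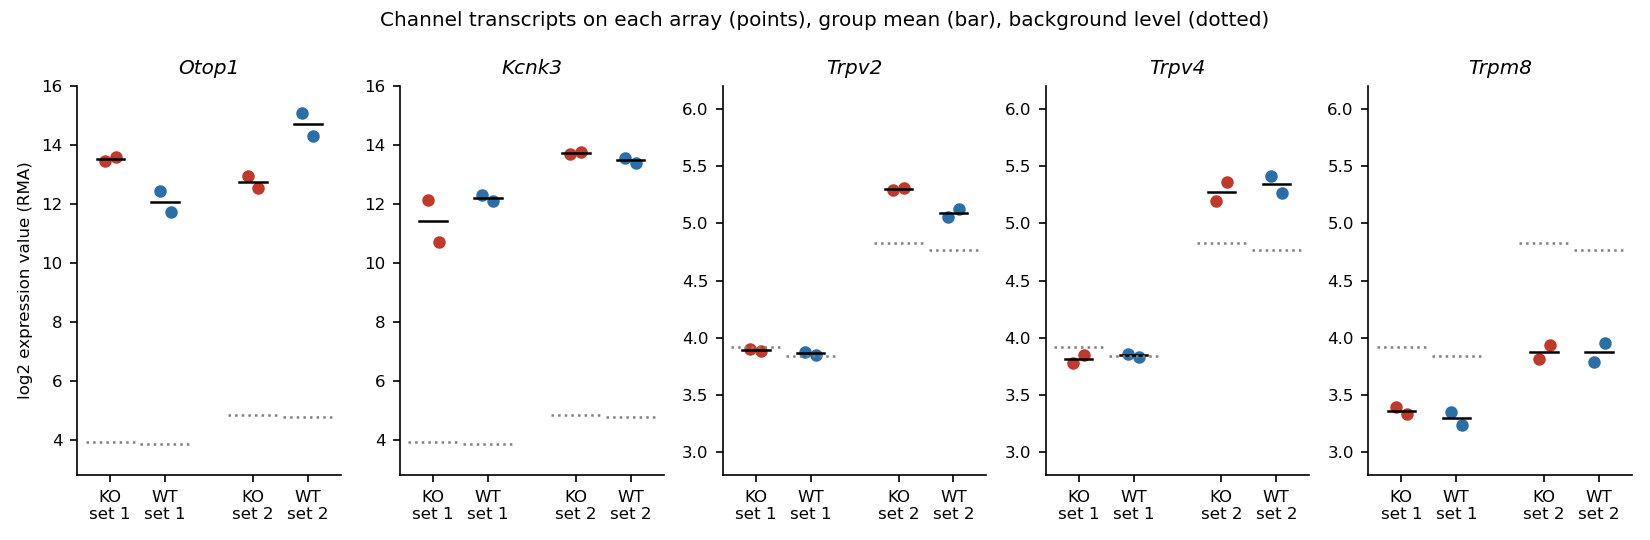
Log2 expression value (vertical axis) of each channel gene on every array, by group and set; points are arrays, bars the mean of 2 arrays, and dotted lines the 95th percentile of olfactory receptor genes (mean of the 2 arrays). The first pair of panels runs to 16 and the other panels to 6.2. Otop1 is higher in KO in set 1 and lower in KO in set 2, and Trpm8 lies under the dotted line in every group.

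Otop1 went in opposite directions in the sets. In set 1 the proton channel read 13.47 and 13.59 in KO arrays, against 12.44 and 11.72 in WT arrays. In set 2 the values were 12.96 and 12.53 in KO arrays, against 15.09 and 14.30 in WT arrays. Both KO values lay above both WT values in set 1, as in 19% of all genes, and below both in set 2, as in 19.1%. The KO minus WT difference was 1.45 (SE 0.32) in set 1, or 2.74 times the WT level, and -1.95 (SE 0.32) in set 2, where the WT level was 3.87 times that of KO. A pattern of this kind, KO above WT in set 1 and below it in set 2 without overlap, was found in 5.29% of all genes, so its direction alone does not set Otop1 apart. Its difference between the sets was -3.41 (SE 0.46), and 0.15% of all genes lay at least as far from 0. Among the 13736 genes above background on all arrays these were 32, Otop1 included. That rank is a description only, since Otop1 was chosen with this contrast known.

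With the set as a block the opposite values of Otop1 nearly cancelled. The mean was 13.14 ± 0.49 in KO and 13.39 ± 1.57 in WT (SD, n = 4 each), a spread that includes the sets. Within set 1 and set 2 the SD was 0.088 and 0.302 in KO, and 0.508 and 0.555 in WT. The difference was -0.25 (SE 0.66, limma adjusted p = 0.999). In that fit 0 of 30668 genes were called (0%), while 1479 had an unadjusted p under 0.05. Within set 1 also 0 genes were called (0%; 2373 at an unadjusted p under 0.05), and within set 2 the share was 0.00326%, 1 gene that is not a member. For the difference between the sets 152 genes were called (0.496%), 37 of them higher in KO in set 1 and lower in KO in set 2, as Otop1 was, and 115 the other way round. That count was not stable, since it fell to 4 with a trended robust prior. It also fell when any 1 of the 8 arrays was left out, which leaves 1 array in a group of a set and less power. Otop1 was 1 of the 37 (limma adjusted p = 0.0465), which is given as a description, since the gene was chosen with this contrast known. It lay close to the threshold and in limma was not called with the trended prior (adjusted p = 0.061) or after median centring (adjusted p = 0.0509). With any 1 array left out Otop1 was not called either, while its difference between the sets stayed at -3.80 to -3.01.

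**Figure D2:**
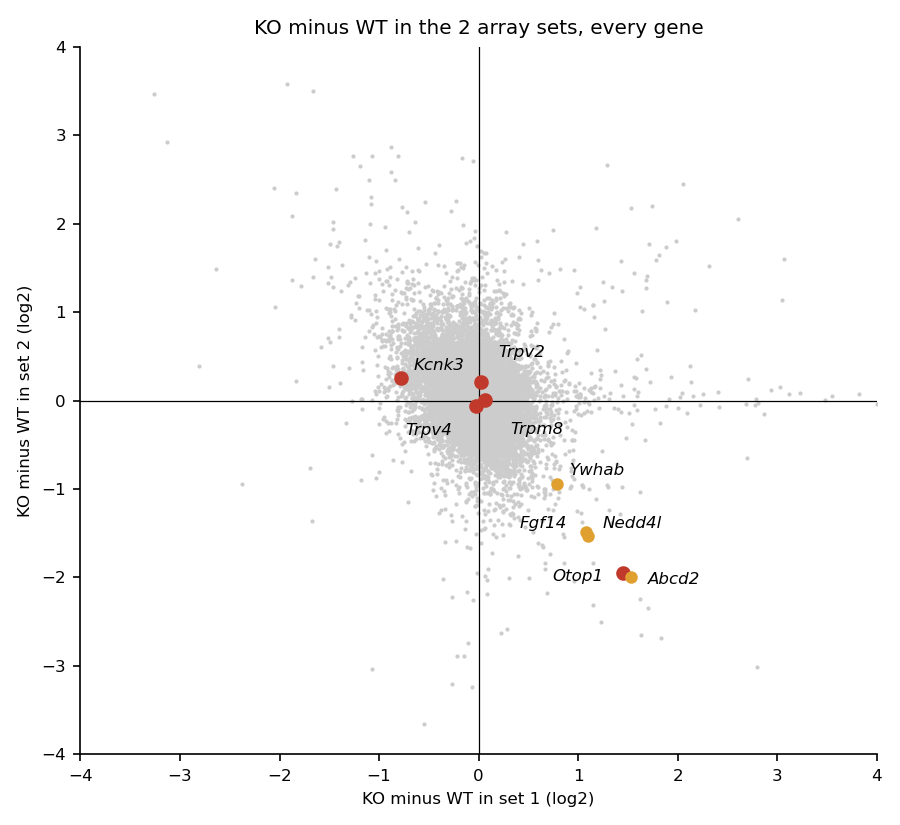
KO minus WT on the log2 scale in set 1 (horizontal axis) against set 2 (vertical axis), 1 grey point per gene, with 16 genes beyond the range of -4 to 4 not drawn. Red points are the channel genes and yellow points Ywhab and the genes nearest to Otop1 in profile; Otop1 lies at 1.45 and -1.95, in the lower right, and the TRP channels near 0.

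Kcnk3 was not called for KO against WT in either set or with the set as a block. The potassium channel read 12.12 and 10.72 in KO arrays of set 1, against 12.31 and 12.08 in WT arrays, and the groups overlapped. The set 2 values were 13.70 and 13.75 in KO arrays, against 13.55 and 13.40 in WT arrays, with both KO values above both WT values, as in 23.9% of all genes. The difference was -0.78 (SE 0.39) in set 1, 0.25 (SE 0.39) in set 2 and -0.26 (SE 0.32; limma adjusted p = 0.999) with the set as a block. A set 1 difference at least as far from 0 was found in 1.56% of all genes. KO replicate 2, at 10.72, decides the set 1 value: without it the difference was -0.08, and without KO replicate 1 it was -1.47. Over all arrays Kcnk3 averaged 12.57 ± 1.45 in KO and 12.84 ± 0.75 in WT (SD, n = 4 each), a spread that includes the sets. Its SD within group and set was 0.503 and that of Otop1 0.408, at percentiles 97.1 and 93.6 of genes above background, whose median was 0.163.

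Trpv2, the channel whose loss weakens thermogenesis in mice, read slightly higher in KO arrays of both sets. It read 5.29 and 5.31 in KO arrays of set 2, against 5.05 and 5.12 in WT arrays, without overlap, as in 23.9% of all genes. In set 1 it read 3.904 and 3.882 in KO arrays, against 3.879 and 3.852 in WT arrays, close to the background limit and again with both KO values above both WT values. Groups apart in the same direction in both sets were found in 5.31% of all genes. The differences were 0.22 (SE 0.09) in set 2 and 0.03 (SE 0.09) in set 1, and with the set as a block 0.12 (SE 0.07; limma adjusted p = 0.985). A value at least as far from 0 was found in 33.7% of all genes.

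Trpv4, the channel that responds to osmotic swelling and warmth, overlapped between the groups in both sets. It read 3.78 and 3.85 in KO arrays of set 1, against 3.86 and 3.83 in WT arrays. The set 2 values were 5.19 and 5.36 in KO arrays, against 5.41 and 5.27 in WT arrays. The difference with the set as a block was -0.05 (SE 0.07). Trpm8 read 3.33 to 3.94 in KO arrays and 3.24 to 3.96 in WT arrays, between percentiles 47.3 and 63.8 of olfactory receptor genes. Its difference of 0.04 (SE 0.07) is between values without measurable signal.

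Among relatives of the channels, few were above background in brown fat. Of the otopetrins, Otop2 and Otop3 passed the limit on 0 of 8 arrays, with values of 3.17 to 3.99 and 3.25 to 4.17. Of 14 K2P channels, 2 passed on all arrays: Kcnk3 and Kcnk6, which encodes TWIK-2. Kcnk6 differed by -0.10 (SE 0.13). Of 14 measured K2P genes 5 were higher and 9 lower in KO with the set as a block (median -0.03, against 0.01 over all genes), and 0 were called. Kcnk2, which encodes the mechanosensitive channel TREK-1, passed on 7 arrays. It read 3.79 and 4.02 in KO arrays of set 1, against 3.89 and 3.92 in WT arrays, with overlap. In set 2 it read 5.18 and 5.17 in KO arrays, against 5.77 and 5.80 in WT arrays, without overlap, as in 19.1% of all genes. The difference was thus -0.005 in set 1 and -0.61 in set 2, which makes -0.31 with the set as a block (SE 0.13; limma adjusted p = 0.985). Kcnk2 was singled out after its values were seen.

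Of 28 TRP channels, 25 had a probe set of their own and 5 of them were above background on every array alongside 16 that never were. Here 13 were higher and 12 lower in KO, the median was 0 (0.01 over all genes), and 0 were called. Trpm7, a channel fused to a kinase that carries magnesium and calcium, differed by 0.09 (SE 0.08). Trpm4, a sodium-permeable channel opened by calcium, differed by 0.22 (SE 0.18), and Mcoln1, a channel of lysosomes, by -0.01 (SE 0.08). The widest difference was that of Pkd2l2, a polycystin, at -0.41 (SE 0.11; adjusted p = 0.985 in limma). It read 5.38 and 5.27 in KO arrays of set 1, against 6.01 and 5.58 in WT arrays. The set 2 values were 7.09 and 6.98 in KO arrays, against 7.52 and 7.25 in WT arrays, so it was lower in KO in both sets without overlap, as 5.31% of all genes were apart in 1 direction in both. Trpc1, a subunit of receptor-operated cation channels, had opposite differences of -0.71 in set 1 and 0.71 in set 2, and was singled out after its values were seen.

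**Figure D3:**
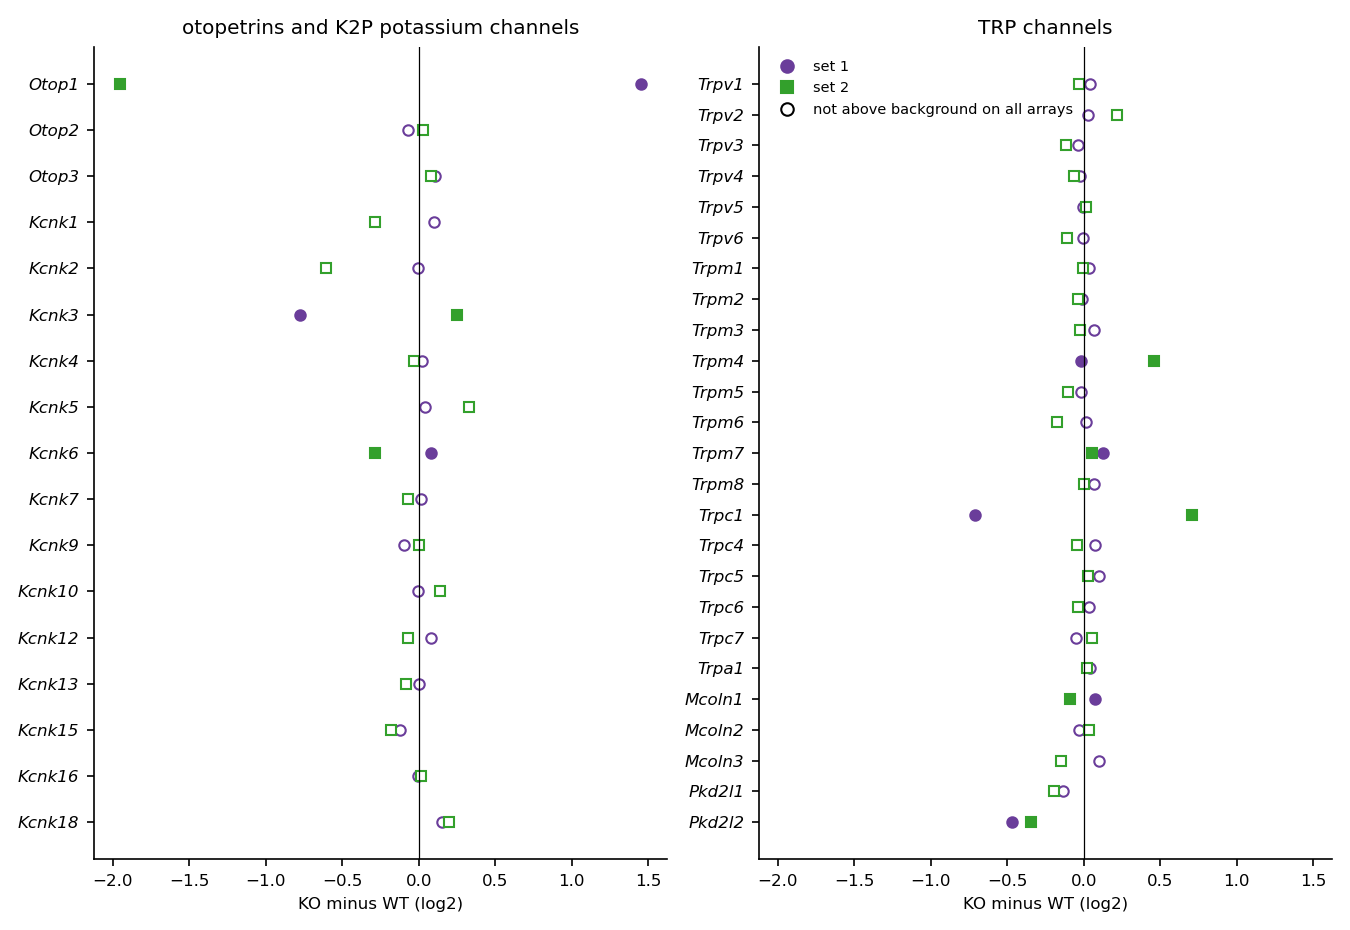
KO minus WT on the log2 scale in set 1 (circles) and set 2 (squares) for the otopetrins and K2P channels (left) and the TRP channels (right). Filled symbols are genes above background on all 8 arrays; Otop1 has the widest gap between the sets, 1.45 against -1.95, followed among filled symbols by Trpc1, and most open symbols lie near 0.

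Other channels of the plasma membrane and their partners showed no call either. Of 32 measured, 18 were above background on all arrays, 16 were higher and 16 lower in KO, and the median was -0.01. Lrrc8a, the required subunit of the volume-regulated anion channel, read 10.21 and 10.18 in KO arrays of set 1, against 9.18 and 9.69 in WT arrays. It read 10.77 and 10.98 in KO arrays of set 2, against 10.59 and 10.78 in WT arrays, where the groups overlapped. The difference with the set as a block was 0.48 (SE 0.16; limma adjusted p = 0.985). Its partner subunit Lrrc8c differed by 0.42 (SE 0.28), by 0.999 in set 1 and -0.15 in set 2. Kcnj8, the pore subunit of vascular ATP-sensitive potassium channels, differed by -0.49 (SE 0.19), and Stim2, a calcium sensor of the endoplasmic reticulum, by -0.26 (SE 0.08).

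The partners of TASK-1 were all above background, 8 of 8 on every array. None was called for KO against WT, 3 being higher and 5 lower (median -0.04). Gnaq and Gna11, the G protein subunits through which receptors close TASK channels, differed by -0.21 (SE 0.10) and -0.25 (SE 0.13). Ywhab is a 14-3-3 protein that helps TASK channels reach the cell surface. It was the 1 partner called for the difference between the sets (adjusted p = 0.0366 in limma), as were 0.496% of all genes. Ywhab was picked out after its values were seen. Its call was lost with KO replicate 1 left out, which leaves 1 array in a group of a set. Ywhab read 13.73 and 13.76 in KO arrays of set 1, against 13.03 and 12.88 in WT arrays. In set 2 Ywhab read 14.02 and 13.90 in KO arrays, against 14.998 and 14.81 in WT arrays. The protein's transcript was thus higher in KO in set 1 and lower in KO in set 2, the direction of Otop1. Ywhaz, another 14-3-3 protein, had differences of -0.15 in set 1 and 0.51 in set 2. Anxa2, which binds the TASK-1 partner S100a10, differed by -0.17 (SE 0.30).

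The genes nearest to Otop1 in profile were Abcd2, Nedd4l and Fgf14. Likeness was the root mean square difference of log2 values over the 8 arrays after the mean of each set was taken off, and 10382 genes were compared. The distances were 0.224, 0.274 and 0.275, against a root mean square of 0.908 for Otop1 itself. Abcd2, a peroxisomal transporter of very long chain fatty acids, read 12.68 and 12.29 in KO arrays of set 1, against 11.49 and 10.41 in WT arrays. Its set 2 values were 11.78 and 11.97 in KO arrays, against 14.22 and 13.52 in WT arrays. Nedd4l, a ubiquitin ligase known for removing ion channels from the membrane, had differences of 1.10 in set 1 and -1.54 in set 2. Fgf14, an intracellular fibroblast growth factor that modulates sodium channels, had differences of 1.08 and -1.49. All 3 had KO above WT in set 1 and below it in set 2 without overlap, which follows from how they were chosen.

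Kcnk3 had other nearest genes. They were Tmem251, a protein of lysosomal enzyme sorting, Rpl41, a ribosomal protein, and Rbpms, an RNA-binding protein, at distances of 0.220, 0.229 and 0.245 against 0.458 for Kcnk3 itself. In all 3 the lowest array of set 1 was KO replicate 2, as for Kcnk3, which follows from how they were chosen. Rpl41 read 16.41 and 15.29 in KO arrays of set 1, against 16.14 and 16.15 in WT arrays. None of the 3 was among the genes nearest to Otop1. Otop1, Kcnk3 and Trpv4 lie on chromosome 5, 3 of the 5 genes. Of the nearest measured genes on either side of Otop1, Drd5 was above background on 0 arrays, and Tmem128, on 8 arrays above it, differed by -0.23 in set 1 and 0.285 in set 2, signs opposite to those of Otop1.

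**Figure D4:**
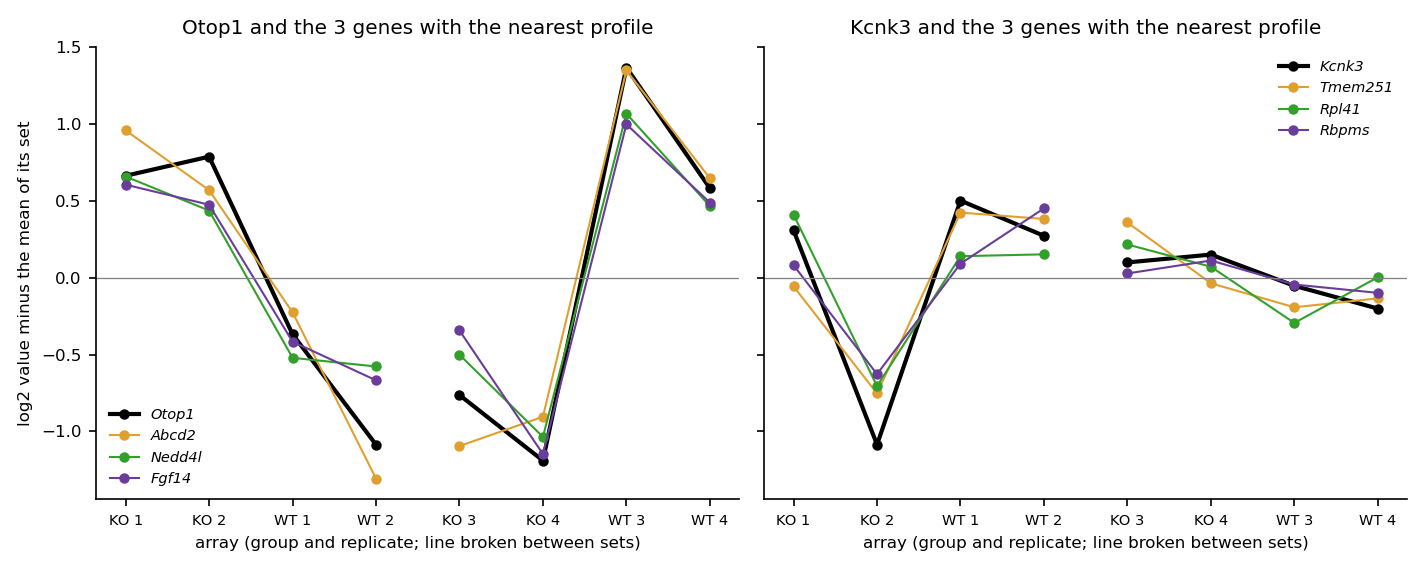
Log2 value minus the mean of its set (vertical axis) on each array (horizontal axis, line broken between sets) for Otop1 (left) and Kcnk3 (right), each in black with its 3 nearest genes in colour. Otop1 and its neighbours are high in KO of set 1 and in WT of set 2, while the Kcnk3 panel is led by a dip of KO replicate 2.

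Marker levels of other tissues and of adipocytes also differed between these arrays. The mean log2 value of 11 hepatocyte markers was 12.90 and 9.48 in KO arrays of set 1, against 8.82 and 6.72 in WT arrays, and 5.34 and 5.33 in KO arrays of set 2, against 5.40 and 5.29 in WT arrays. In set 1 these markers were thus higher in KO, as Otop1 was. With the set as a block 10 of 11 were higher in KO, as were 16121 of all 30668 genes. The part of the hepatocyte markers in the set 1 difference of Otop1 was not tested. The mean of 20 skeletal muscle markers was 5.96 and 8.78 in KO arrays of set 1, against 7.81 and 7.29 in WT arrays. The set 2 means were 5.40 and 10.24 in KO arrays, against 10.63 and 8.95 in WT arrays, and the groups overlapped in both sets. With the set as a block 20 of 20 were lower in KO, as were 47.4% of all genes. Of these 20 markers, 12 were above background on all arrays, and as markers of the same tissue they are not separate results. Their part in the differences of Otop1 was not tested.

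Adipocyte markers were also followed on each array. The 12 brown adipocyte markers averaged 12.07 and 12.29 in KO arrays of set 1, against 12.55 and 12.73 in WT arrays. That mean was lower in KO, whereas 6 of the 12 markers were higher in KO in set 1 and their median difference was 0.015. In set 2 the averages were 13.91 and 13.59 in KO arrays, against 13.43 and 13.69 in WT arrays, with overlap. The 10 measured markers of adipocytes in general averaged 14.00 and 14.27 in KO arrays of set 1, against 14.27 and 14.23 in WT arrays. In set 2 they averaged 14.99 and 14.77 in KO arrays, against 15.51 and 15.32 in WT arrays, lower in KO as Otop1 was, with 2 of 10 markers higher in KO and a median difference of -0.36. Their part in the set 2 difference of Otop1 was not tested. In whole tissue, fewer cells of a type and less RNA per cell cannot be told apart.

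The cell types in which TRP channels are otherwise known were also followed. Of 10 measured sensory neuron markers 0 passed the limit on every array and 9 never passed it, with list means of 3.45 to 4.06 in KO arrays and 3.40 to 4.04 in WT arrays. Macrophages also make Trpv2. With the set as a block 10 of 12 macrophage markers were higher in KO (median 0.18), as were 16121 of all 30668 genes. As markers of the same cell type they are not separate results. Their mean was 7.50 and 7.66 in KO arrays of set 2, against 7.23 and 7.43 in WT arrays. In set 1 the macrophage mean was 6.09 and 5.73 in KO arrays, against 5.93 and 5.75 in WT arrays, with overlap. Trpv2 was higher in KO in both sets, and the part of these cells in it was not tested. Endothelial markers, of cells that also make Trpv4, were higher in 7 of 11 (median 0.03), and mural cell markers higher in 3 of 12 (median -0.05). The endothelial mean was also higher in KO in set 2, at 9.87 and 9.98, against 9.57 and 9.76 in WT arrays. In set 1 it was 8.08 and 8.18 in KO arrays, against 7.95 and 8.40 in WT arrays, with overlap. The mural cell mean overlapped in set 1 and was lower in KO in set 2, at 8.81 and 8.83, against 8.97 and 9.15 in WT arrays. Markers of Schwann cells and nerve were higher in 3 of 9 (median -0.02), and epidermal markers, of which 8 never passed the limit, in 7 of 12 (median 0.03). The Schwann cell and nerve mean was 4.945 and 4.897 in KO arrays of set 1, against 5.037 and 5.025 in WT arrays. In set 2 it was 6.233 and 6.280 in KO arrays, against 6.405 and 6.408 in WT arrays, so it was lower in KO in both sets.

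**Figure D5:**
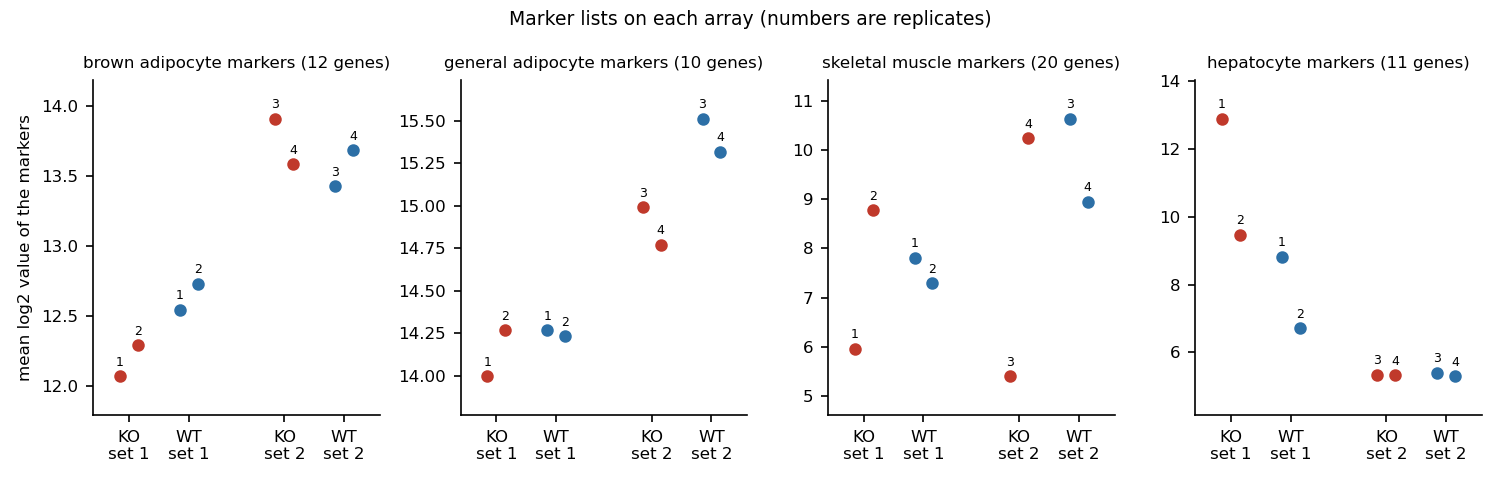
Mean log2 value (vertical axis, a scale of its own in each panel) of 4 marker lists on every array, KO in red and WT in blue, with replicate numbers. Hepatocyte markers are spread over set 1 and even in set 2, and muscle markers are low in KO replicates 1 and 3.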

How the data were processed

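RNA from interscapular brown fat was hybridised to 8 Affymetrix arrays (4 KO, 4 WT). Per the labels, the authors ran RMA on core exons in Expression Console and deposited log2 values; the design text speaks of Clariom S, but the number of probe sets points to a larger design, and the array type is not settled here. No version, annotation or genome build is stated there. The base of the logarithm follows from the ceiling of the deposited values, 19.93, which equals log2 of 1000000. Scanner files were not used, so normalization starts from the authors' values. The value table held 72688 probe sets, of which 6732 were controls.

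Of the other 65956 probe sets, 31212 were annotated with 1 gene, 1538 with several and 33206 had no gene name here. Symbols were updated through a RefSeq table of GRCm38.p6, used for names, chromosomes and gene order, which matched 31210 of the 31212. A gene was represented by its probe set with the highest mean over all arrays, which left 30668 genes. Each of the 5 channels had 1 probe set.

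Replicates 1 and 2 of both groups (set 1) and replicates 3 and 4 (set 2) have different distributions, so they were treated as normalized apart. The fit was limma 3.58.1 in R 4.3.3 (lmFit and eBayes) on KO minus WT blocked by set, and with 1 mean per group and set for the differences within and between sets. Calls were made at a Benjamini-Hochberg adjusted p under 0.05 over all genes. This fit was tested on simulated data. The limit of background was the 95th percentile of 1099 olfactory receptor genes on each array, and the number of arrays limits the precision. A gene counted as saturated if it came within 0.1 of an array's highest value.

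The members, the lists of channels and markers and the blocked fit were chosen with earlier results of these data known. The named genes were the members, Hilpda, the other otopetrins, the 4 genes with the largest KO minus WT difference in each list of channels and partners among those above the limit on all 8 arrays, and the 3 genes nearest in profile to each member above that limit on all 8 arrays. Trpc1, Kcnk2, Ywhab and the nearest chromosomal neighbours were added after their values were seen. Same-numbered KO and WT arrays deviated together from their group means (r = 0.701, 0.473, 0.479 and 0.61), and same-numbered arrays also share a set. With the set means removed, r was 0.107 for replicates 1 and 2 and -0.089 for replicates 3 and 4, so a pairing beyond the set is not shown.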

Additional observations from a re-analysis of the deposited data

Results flagged for a closer look

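In 9 of 29 named genes the KO values lay apart from the WT values without overlap in both array sets and in opposite directions, and no explanation is weighed. In 3 of them limma called the change from set 1 to set 2, as in 0.496% of all genes: -3.41 for Otop1, -2.63 for Nedd4l and -1.73 for Ywhab. The call of Otop1 was lost in limma with a trended prior (adjusted p = 0.061) and after median centring (adjusted p = 0.0509). It was also lost with any 1 array left out, which leaves 1 array in a group of a set. The calls of Nedd4l and Ywhab were likewise lost with KO replicate 1 left out. Over all genes the 152 calls of this kind became 4 with the trended prior. In the other 6 genes the change from set 1 to set 2 was -3.53 for Abcd2, -2.57 for Fgf14, 1.42 for Trpc1, 1.13 for Tmem251, 0.69 for Rbpms and 0.66 for Ywhaz. In limma these 6 were not past the threshold, with adjusted p = 0.0539 for Abcd2 and adjusted p = 0.0568 for Fgf14. Turned groups without overlap, in either order, were found in 12.7% of all genes, and Abcd2, Nedd4l, Fgf14, Tmem251 and Rbpms were named for their likeness to a channel. Otop1 was chosen with this contrast known, and Ywhab and Trpc1 were added after their values were seen. The counts among the 29 named genes therefore cannot be read against the shares of all genes.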

How the results depend on the processing

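The fit of KO against WT with the set as a block called 0 genes, and so did the fits without a block, with the replicate number as a block (replicate block, 0 genes), with a filter on low values, with a trended robust prior, after quantile normalization and after median centring. Leaving out 1 array gave 0 to 1 genes, 0 to 14 within set 1, 0 to 10 within set 2 and 0 to 10 for the difference between the sets. Within set 2 quantile normalization gave 0. For the difference between the sets, the 152 genes became 313 with the filter, 4 with the trended prior and 82 after centring. Otop1 kept a difference between the sets of -3.41 with the trended prior (adjusted p = 0.061 in limma) and -3.39 after centring (adjusted p = 0.0509), -3.80 to -3.01 with 1 array left out (adjusted p = 0.0661 to 0.158), and stayed called with the filter (adjusted p = 0.0359) and after quantile normalization (adjusted p = 0.0465). Its set 2 difference was -2.47 after quantile normalization. Over both sets, Otop1 ranged over -0.73 to 0.25 with 1 array left out, Kcnk3 over -0.44 to 0.12 and Trpv2 over 0.089 to 0.145. Trpv2 was at 0.081 after quantile normalization. Kcnk3 within set 1 ranged from -1.47 without KO replicate 1 to -0.079 without KO replicate 2. The within-set and between-set values of Otop1 and Kcnk3 under these settings were added after the data were seen. Averaging several probe sets was not run, since each member has 1. Within a set there are 2 arrays per group, and signal near background limits Trpv2, Trpv4 and Trpm8.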
